A study of Mus musculus with 8 samples.

Results

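The mu- and pi-class glutathione transferases are 2 families of cytosolic enzymes, and 9 of their genes, Gstm1 to Gstm7, Gstp1 and Gstp2, were all found by symbol among the 22013 genes of a mouse liver count table. Gstm1 to Gstm7 form the mu class and Gstp1 and Gstp2 the pi class, and all 9 passed the filter on low counts that left 12207 genes to test. RNA selected by its poly(A) tail was sequenced in 8 liver libraries, 4 labelled as given resmetirom and 4 labelled control. Resmetirom activates the thyroid hormone receptor and prefers its beta form, the main one in hepatocytes. The series describes mice fed fructose, palmitate and cholesterol for 12 weeks as a model of steatohepatitis. The drug was injected into the peritoneum at 5 mg/kg each day for 8 weeks, beginning after 4 weeks of feeding. Its vehicle was 0.5% CMC-Na with 0.4% Tween-80. Neither the diet nor the injection of the control libraries is stated on their labels, and strain, sex and age are not given either, so drug, diet and vehicle cannot be told apart. Nothing in the labels says that each library is a separate animal, so the spread behind each p-value is that of these libraries and may be technical. In bulk liver RNA, fewer cells of a type and less RNA per cell likewise cannot be told apart.

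Glutathione transferases join the tripeptide glutathione to reactive electrophiles, which detoxifies them and marks them for export and excretion. In rodent liver the mu and pi classes make up a large part of this activity, and many of their genes are induced through the transcription factor NRF2, which binds antioxidant response elements in promoters. Gstp1 is also known to be higher in the livers of male than of female mice.

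Of the 9 genes, Gstm1 and Gstp1, the most abundant member of each class, were lower in the resmetirom libraries, and Gstm2, a close relative of Gstm1 in the same gene cluster, was higher. Gstm1 stood at 0.548 of its control level, Gstp1 at 0.629 and Gstm2 at 1.58 times its control level. These folds are from edgeR's quasi-likelihood test with TMM factors, which scale the libraries on the assumption that most genes do not differ. Members called at a Benjamini-Hochberg adjusted p under 0.05 over all tested genes were thus 2 lower and 1 higher of 9. Among all 12207 tested genes 1.99% were called lower and 2.6% higher, or 4.59% in either direction. The other 6 members were not called.

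The scaling matters for these genes. The TMM factors were 0.804 to 1.06 in the resmetirom and 1.08 to 1.16 in the control libraries. Scaled by library size alone, the tested genes had a median log2 fold change that was shifted by -0.31. Gstm1 and Gstp1 were still called lower there, while Gstm2 was not called higher. That scaling called 1961 of the 12207 tested genes lower and 151 higher, the background for every gene list counted at it. Changes are relative to the TMM scaling unless another one is named, and levels in CPM are counts relative to the library size scaled by those factors. Library totals were 16787561 to 19887539 counts. Over all tested genes 317 were called higher and 243 lower, against 208 and 161 without resmetirom replicate 4 and 182 and 149 without control replicate 4. The libraries carry liver identity, with the 10 hepatocyte markers together at 101603 to 108629 CPM in the resmetirom and 81769 to 93224 CPM in the control libraries. All 4 tested genes of the Y chromosome were detected in every library. Together they came to 121 to 153 CPM in the resmetirom and 115 to 158 CPM in the control libraries, and none was called.

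The 7 mu-class genes lie in a row on chromosome 3 of GRCm38 (positions 107895821 to 108044894, the assembly that mm10 names), in the order Gstm5, Gstm7, Gstm6, Gstm3, Gstm2, Gstm1 and Gstm4. Gstm5 is on the plus strand and the other 6 are on the minus strand. Gstm1 (ENSMUSG00000058135, 108012255 to 108017973) and Gstm2 (ENSMUSG00000040562, 107981702 to 107986453) are neighbours within the class, 25801 bases apart, with 1 other annotated gene, Gm43746, between them. Gstp1 (ENSMUSG00000060803, 4035407 to 4037985) and Gstp2 (ENSMUSG00000038155, 4040285 to 4046023) are on the minus strand of chromosome 19, 2299 bases apart. Gstm5 overlaps the annotated gene 4933431E20Rik, and no other member overlaps an annotated gene.

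Promoters are shown for the neighbours Gstm1 and Gstm2, whose transcripts moved in opposite directions, and for the near copies Gstp1 and Gstp2. Sequences are from RefSeq on GRCm38.p6, each on the minus strand and read 5′ to 3′, with 250 bases before and 20 after an annotated start. The Gstm1 window is chr3:108017799-108018068, from the second of 2 starts listed for that gene, and the Gstm2 window is chr3:107986401-107986670. The pi-class windows are chr19:4037893-4038162 for Gstp1 and chr19:4042202-4042471 for Gstp2. Capitals mark matches to the 4 motifs searched.
Gstm1: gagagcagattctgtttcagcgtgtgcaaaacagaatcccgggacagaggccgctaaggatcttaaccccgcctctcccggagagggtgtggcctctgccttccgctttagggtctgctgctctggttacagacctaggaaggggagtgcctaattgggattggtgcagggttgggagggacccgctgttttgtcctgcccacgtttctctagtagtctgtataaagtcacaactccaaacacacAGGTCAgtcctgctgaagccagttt
Gstm2: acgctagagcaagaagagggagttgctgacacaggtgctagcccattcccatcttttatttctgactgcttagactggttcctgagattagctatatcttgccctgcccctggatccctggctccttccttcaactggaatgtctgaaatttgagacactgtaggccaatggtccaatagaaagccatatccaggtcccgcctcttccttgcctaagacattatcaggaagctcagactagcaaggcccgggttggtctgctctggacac
Gstp1: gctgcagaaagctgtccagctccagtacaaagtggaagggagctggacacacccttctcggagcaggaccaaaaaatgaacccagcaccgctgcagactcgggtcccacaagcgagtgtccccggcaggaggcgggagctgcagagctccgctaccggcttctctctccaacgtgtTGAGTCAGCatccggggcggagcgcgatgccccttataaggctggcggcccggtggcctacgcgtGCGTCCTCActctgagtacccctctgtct
Gstp2: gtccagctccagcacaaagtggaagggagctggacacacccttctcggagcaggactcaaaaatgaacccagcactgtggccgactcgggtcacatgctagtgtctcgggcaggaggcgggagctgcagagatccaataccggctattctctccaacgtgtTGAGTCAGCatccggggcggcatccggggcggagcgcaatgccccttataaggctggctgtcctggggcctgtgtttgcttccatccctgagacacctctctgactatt

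The motifs were searched on both strands in the full 300-base windows. They were TGACNNNGC, the core of the antioxidant response element, TGAGNNNGC, a variant of that core, AGGTCA, the core site of nuclear receptors, and TTCNNNGAA, the element bound by STAT5. No 2 of these matches overlapped. The search for TGAGNNNGC was added after the promoters had been seen. A match to TGAGNNNGC, spelled TGAGTCAGC, lay 74 bases before the start of Gstp1 and 89 bases before that of Gstp2. Gstp1 had another TGAGNNNGC match on the opposite strand, ending at the base before its start. Windows of Gstm5 and Gstm7, not shown, held TGACNNNGC, that of Gstm5 also held TGAGNNNGC on the opposite strand, and 1 of Gstm6 held TTCNNNGAA. Of 32851 promoters of this length 17.6% hold TGAGNNNGC, 12.4% TGACNNNGC, 16.3% AGGTCA and 8.30% TTCNNNGAA. The second Gstm1 window held AGGTCA across the start. The first Gstm1 window, not shown, and the Gstm2 window held none of the 4 motifs. A match of letters describes the sequence and says nothing of binding. Aligned end to end, the windows of Gstp1 and Gstp2 were identical in 75.9% of columns, and those of Gstm1 and Gstm2 in 41.5%.

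How well reads can be assigned depends on how much sequence the transcripts share. Gstp1 and Gstp2 were identical at 98.1% of coding positions, and the 21 pairs of mu-class genes at 66.1% to 89.5%. The nearest mu-class pair was Gstm1 and Gstm3 at 89.5%, Gstm1 and Gstm2 shared 86.0%, and Gstm5 was the most distant member, at 66.1% to 70.5% of the others. Of all stretches of 50 bases in a member's longest coding transcript, 72.6% in Gstp2 and 62.3% in Gstp1 also occurred in a transcript of another gene. The figure was 28.8% for Gstm3, 23.1% for Gstm1, 11.5% for Gstm6 and 9.36% for Gstm2, and 0 for Gstm4, Gstm5 and Gstm7. The sources used here do not say how the authors' counting treated shared reads. Counts of Gstp2 and Gstp1, and to a smaller degree of Gstm3 and Gstm1, are therefore uncertain. Of the 772 stretches of Gstp1, 481 occurred in Gstp2 and 352 in the pseudogene Gstp-ps. Gstm1 stretches were shared mainly with the pseudogene Gstm2-ps1 and with Gstm3. Gstm1 and Gstm2 shared few of them, 11 of the 1015 stretches of Gstm2.

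Levels can be compared between genes per unit of length, as deposited TPM, the length-scaled abundance that the authors computed. In the resmetirom libraries Gstm1 led with 976 ± 283 TPM, followed by Gstp1 with 533 ± 66.2 TPM (SD, n = 4 each, as for all values ± SD here). In the control libraries Gstm1 was at 2470.4 ± 294 TPM and Gstp1 at 1207 ± 118 TPM. By mean TPM, Gstm1 was the 98th and Gstp1 the 176th gene of the table in the resmetirom libraries, against the 52nd and the 99th in the control libraries. Then came Gstm2 at 84.5 ± 21.0 TPM in the resmetirom and 74.7 ± 9.74 TPM in the control libraries, and Gstm4 at 50.7 ± 11.2 TPM in the resmetirom and 70.8 ± 11.1 TPM in the control libraries. Their ranges met in the control but not in the resmetirom libraries. Gstm6, Gstm7 and Gstm3 lay between 12.6 and 43.8 TPM in the resmetirom libraries, and between 23.5 and 60.3 TPM in the control libraries, with overlapping ranges. The range of Gstm4 met those of Gstm6 and Gstm3 in the resmetirom and in the control libraries. Gstm5, whose range met those of Gstm3, Gstm6 and Gstm7 in the resmetirom libraries, had 19.4 ± 6.66 TPM there and 17.8 ± 3.49 TPM in the control libraries. Gstp2 was last at 6.22 ± 3.09 TPM in the resmetirom and 6.97 ± 3.20 TPM in the control libraries. TPM sums to the same total in every library, and 32.4% of all tested genes had all resmetirom libraries below all control libraries in TPM, and 0.811% had them above.

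Gstm1, the main mu-class enzyme of mouse liver, had 1032, 844, 809 and 1036 CPM in the resmetirom libraries, against 1820.4, 1451, 1730.5 and 1782 CPM in the control libraries. The highest resmetirom library stayed below the lowest control library. Its log2 fold change was -0.87 (SE 0.11, edgeR quasi-likelihood adjusted p = 0.000921), and 81 genes of the 12207 had a smaller p. Leaving out any 1 library gave -0.94 to -0.81 with adjusted p of 0.000923 to 0.0055. In the authors' deposited table, whose log2 fold change is the ratio of mean TPM, the value was -1.34 with an adjusted p of 5.76e-15.

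Gstm2, which shares 86.0% of its coding sequence with Gstm1 and whose human counterpart is known for conjugating oxidized dopamine, had 73.7, 62.9, 68.0 and 64.5 CPM in the resmetirom libraries. The control libraries had 45.1, 35.9, 46.8 and 42.5 CPM. All 4 resmetirom libraries lay above all 4 control libraries, a separation in that direction seen in 6.32% of all tested genes. The log2 fold change was 0.66 (SE 0.10, edgeR adjusted p = 0.00300), and 0.59 to 0.71 when any 1 library was left out, with adjusted p of 0.00562 to 0.0158. This call rests on the TMM-type scaling. As raw counts Gstm2 had 1307, 968, 1022 and 952 in the resmetirom and 969, 742, 1029 and 859 in the control libraries, which overlap. With library sizes only the change was 0.36 (adjusted p = 0.0943), in log2(TPM + 1) 0.16 (adjusted p = 0.438), and 0.18 in the authors' deposited table with an adjusted p of 0.232.

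**Figure D1:**
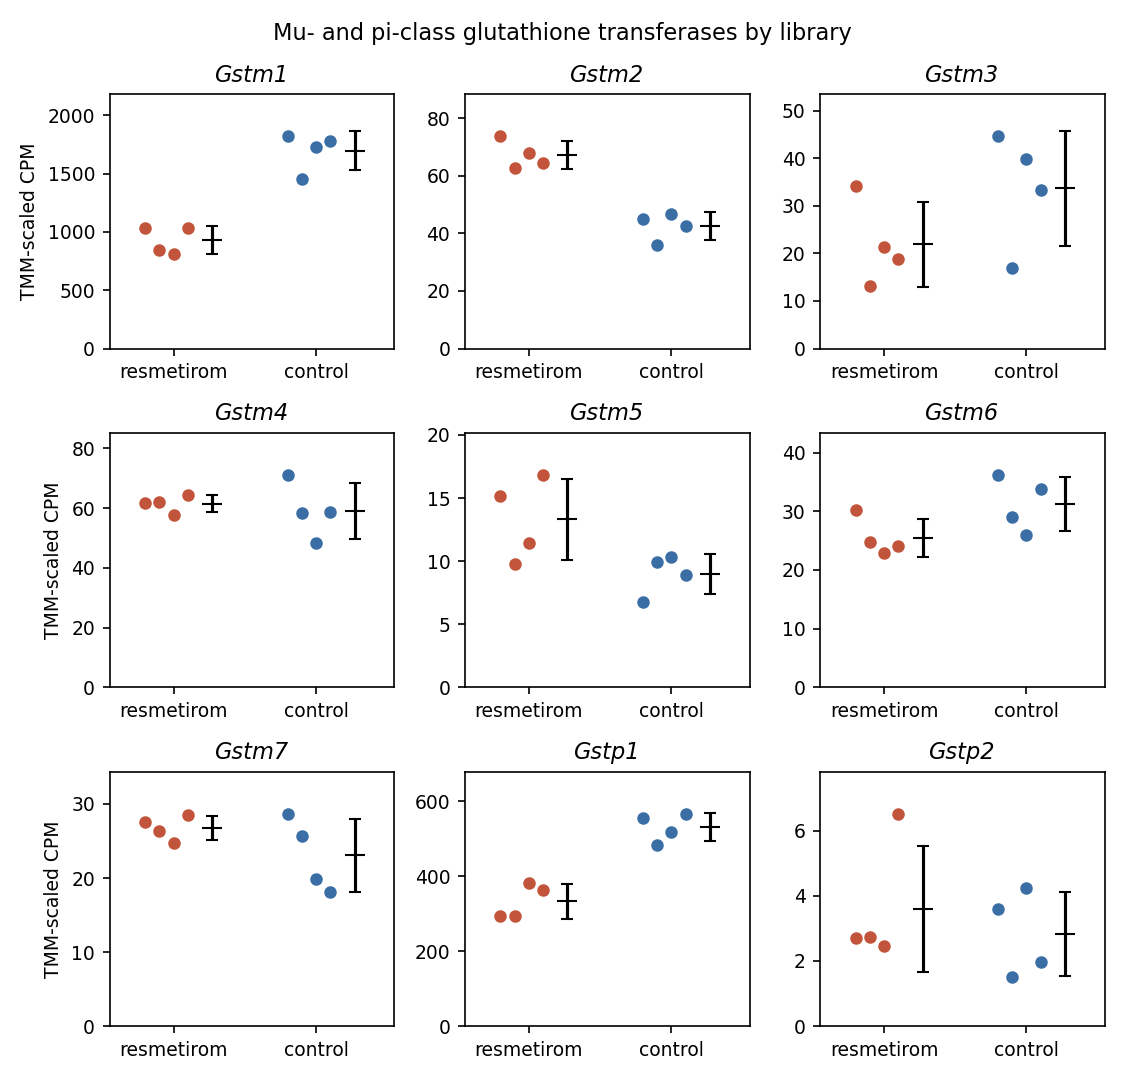
TMM-scaled CPM of each of the 9 genes (vertical axes, linear and starting at 0, with a range of their own) in the 4 resmetirom libraries (left, red points) and the 4 control libraries (right, blue points), with the mean and SD as a bar beside them. The groups do not meet for Gstm1 and Gstp1, lower with resmetirom, and for Gstm2, which is higher at this scaling, and they overlap for the other 6 genes.

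A comparison within each library does not depend on the scaling. For each Gstm2 count there were 14.0, 13.4, 11.9 and 16.1 Gstm1 counts in the resmetirom libraries, against 40.3, 40.4, 37.0 and 41.9 in the control libraries. The means were 13.8 ± 1.73 in the resmetirom and 39.9 ± 2.08 in the control libraries, and in TPM 11.5 ± 1.43 and 33.2 ± 1.74 in the same order. The 2 neighbours thus changed unequally at any scaling, while which of them moved by how much depends on the one chosen.

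Gstm1 made up 81.0%, 80.9%, 79.7% and 82.7% of all mu-class counts in the resmetirom libraries, against 88.7%, 89.2%, 90.1% and 90.1% in the control libraries. Its share averaged 81.1% ± 1.24 with resmetirom and 89.5% ± 0.697 in the controls, and 80.3% ± 1.33 and 89.2% ± 0.665 in the same order when computed from TPM. Of the other 6 mu-class genes, 5 had a share that was larger in every resmetirom library than in any control library. Gstm2 had 5.92% ± 0.643 in the resmetirom and 2.25% ± 0.127 in the control libraries, and Gstm4 had 5.41% ± 0.508 and 3.13% ± 0.488 in the same order. For Gstm5 these shares were 1.15% ± 0.166 with resmetirom and 0.482% ± 0.120 in the controls, for Gstm7 2.35% ± 0.162 and 1.23% ± 0.311, and for Gstm6 2.23% ± 0.212 and 1.65% ± 0.203. Gstm3 was the exception, with 1.89% ± 0.639 in the resmetirom and 1.74% ± 0.512 in the control libraries and overlapping groups. Shares add up to a fixed total, so a lower share of Gstm1 by itself raises those of the others.

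**Figure D2:**
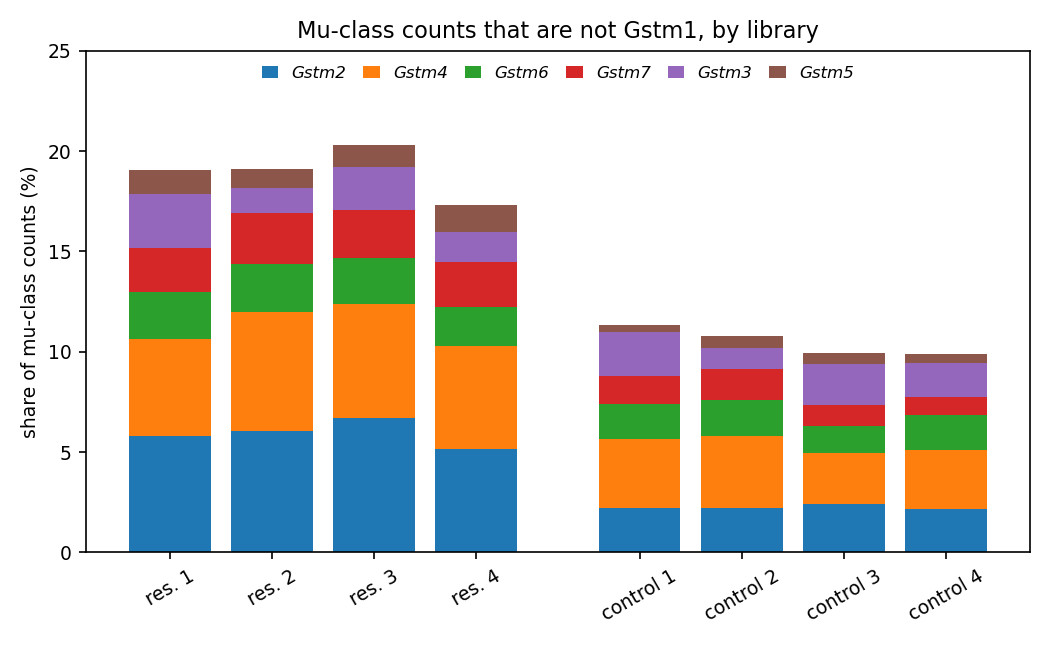
Share of all mu-class counts in each library that belongs to the 6 genes other than Gstm1 (vertical axis, percent, starting at 0), stacked by gene, with the resmetirom libraries (res. 1 to 4) left of the control libraries. Gstm1 holds the rest, 81.1% ± 1.24 in the resmetirom and 89.5% ± 0.697 in the control libraries, and the Gstm2 part is 5.92% and 2.25% in the same order.

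Gstm3, the mu-class gene nearest to Gstm1 in sequence, had 34.2, 13.2, 21.4 and 18.8 CPM in the resmetirom and 44.6, 17.0, 39.8 and 33.4 CPM in the control libraries. Relative to its mean it had the widest spread of the class, and the groups overlapped. The log2 fold change was -0.62 (SE 0.37, edgeR adjusted p = 0.458), and a change as large as that of Gstm1 lies within its error. Gstm6, another mu-class enzyme, had 30.2, 24.7, 23.0 and 24.1 CPM in the resmetirom and 36.1, 29.0, 25.9 and 33.7 CPM in the control libraries. The groups overlapped, at 25.5 ± 3.23 CPM with resmetirom and 31.2 ± 4.58 CPM in the controls, with a log2 fold change of -0.29 (SE 0.13, edgeR adjusted p = 0.265). It was called lower with library sizes only, at -0.58 (adjusted p = 0.0332), and in the authors' deposited table, at -0.76 with an adjusted p of 0.000845.

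Gstm4, Gstm5 and Gstm7, whose longest coding transcripts share no 50-base stretch with a transcript of another gene, had fitted changes above 0 that were not called. Only stretches in the direction of the transcript were compared, so reads shared by Gstm5 with the overlapping gene 4933431E20Rik are not excluded. Gstm4 had 61.8, 62.2, 57.7 and 64.3 CPM in the resmetirom and 71.0, 58.2, 48.3 and 58.8 CPM in the control libraries. The resmetirom values lay inside the control range, with a log2 fold change of 0.06 (SE 0.11, edgeR adjusted p = 0.860). Its sign turned without control replicate 3 (-0.03), with library sizes only (-0.24) and in log2(TPM + 1) (-0.48, adjusted p = 0.0400). Gstm7 had 27.6, 26.4, 24.7 and 28.5 CPM in the resmetirom and 28.6, 25.7, 19.8 and 18.1 CPM in the control libraries. These groups overlapped as well, with a log2 fold change of 0.22 (SE 0.14, edgeR adjusted p = 0.510) that turned to -0.08 with library sizes only and to -0.24 in log2(TPM + 1). Gstm5, the most diverged member, had 15.2, 9.81, 11.5 and 16.8 CPM in the resmetirom and 6.80, 9.92, 10.3 and 8.90 CPM in the control libraries. All resmetirom libraries but replicate 2 exceeded all controls, and the log2 fold change was 0.57 (SE 0.20, edgeR adjusted p = 0.140). In the authors' deposited table the log2 fold change was -0.48 for Gstm4 (adjusted p = 0.0391), -0.27 for Gstm7 (adjusted p = 0.408), 0.13 for Gstm5 (adjusted p = 0.686) and -1.05 for Gstm3 (adjusted p = 0.0655).

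**Figure D3:**
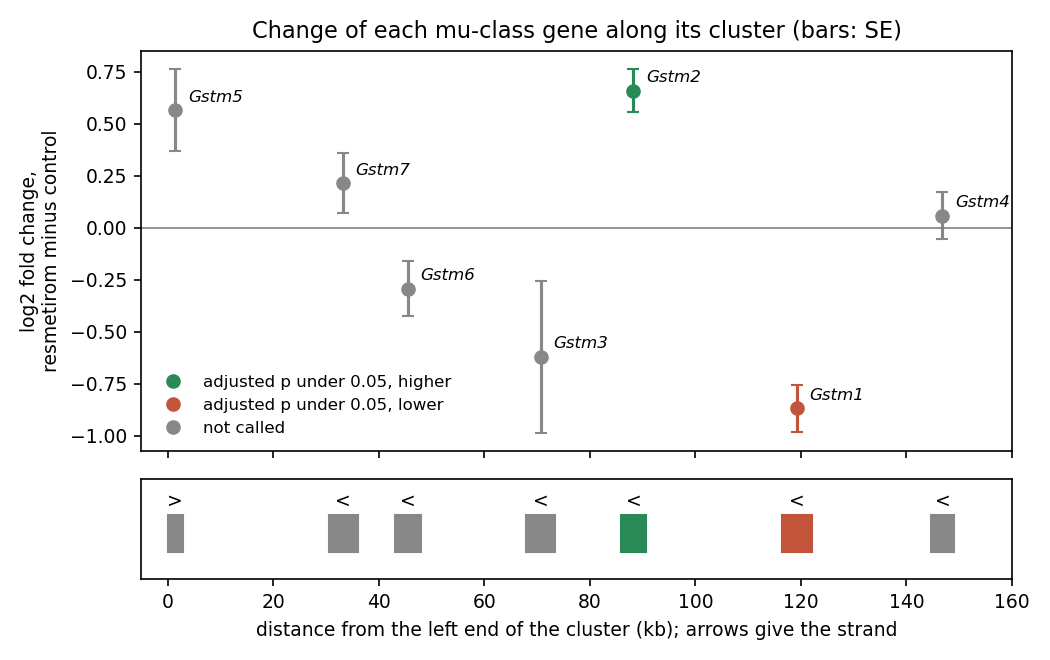
Log2 fold change of each mu-class gene, resmetirom minus control at the TMM scaling, with its SE (vertical axis of the upper panel), by distance in kb from the left end of the cluster (horizontal axis), above a map of the genes with their strands. Gstm2 (0.66, called higher) and Gstm1 (-0.87, called lower) are adjacent, and the 5 genes in grey were not called.

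Summed over the class, mu-class transcripts had 1275, 1043, 1015 and 1253 CPM in the resmetirom libraries, against 2053, 1627, 1921 and 1977 CPM in the control libraries. A sum is not affected by reads moved between members. Reads shared with genes outside it, such as the pseudogenes Gstm2-ps1 and, for the pi class, Gstp-ps, can still change it. The groups did not overlap, and the log2 ratio of the means was -0.72 and lay between -0.79 and -0.67 when any 1 library was left out. Without Gstm1, the remaining 6 genes came to 216 ± 19.1 CPM with resmetirom and 199 ± 24.0 CPM in the controls, with overlapping groups. As a share of all counts, the class held 0.0816% to 0.135% of the resmetirom and 0.176% to 0.229% of the control libraries.

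Gstp1, which encodes the pi-class enzyme of liver, also known to restrain the stress kinase JNK, had 294, 293, 383 and 364 CPM in the resmetirom libraries. The control libraries had 554, 483, 518 and 566 CPM. Every resmetirom library was below every control library, a separation in that direction seen in 5.5% of all tested genes. The log2 fold change was -0.67 (SE 0.11, edgeR adjusted p = 0.00338), and it stayed between -0.74 and -0.61 without any 1 library, with adjusted p of 0.00251 to 0.0173. With library sizes only it was -0.99 (adjusted p = 0.000138), and in the authors' deposited table -1.18 with an adjusted p of 3.08e-19.

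Gstp2, the near-identical minor copy, had 48, 42, 37 and 96 counts in the resmetirom and 77, 31, 93 and 40 counts in the control libraries. Resmetirom replicate 4 was highest in its group and the groups overlapped. The log2 fold change was 0.34 (SE 0.40, edgeR adjusted p = 0.739) and -0.10 without resmetirom replicate 4. Gstp2 held 1.06% ± 0.483 of pi-class counts with resmetirom and 0.527% ± 0.240 in the controls. With 481 of its 748 stretches of 50 bases found in Gstp1, these few counts are uncertain. The pi-class sum therefore followed Gstp1, with 296, 295, 385 and 371 CPM in the resmetirom and 558, 485, 522 and 567 CPM in the control libraries, a log2 ratio of means of -0.66. A further pi-class gene, Gstp3, not among the 9, was at -0.25 (SE 0.17, edgeR adjusted p = 0.510).

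**Figure D4:**
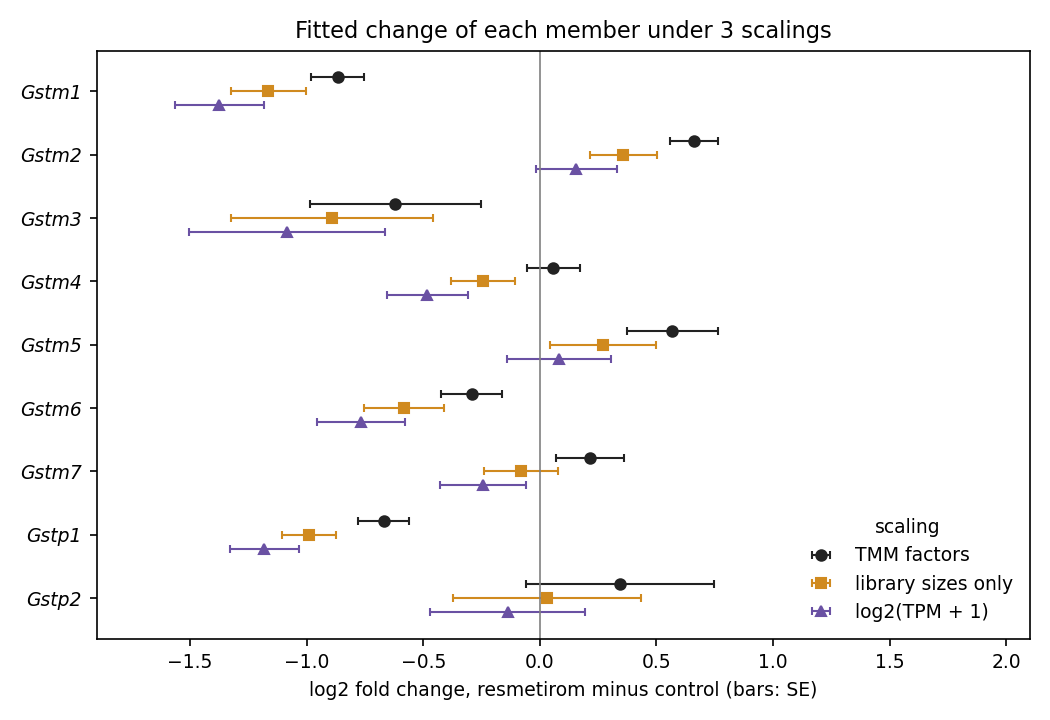
Log2 fold change with its SE (horizontal axis, resmetirom minus control) of each of the 9 genes under TMM factors (black circles), library sizes only (orange squares) and the deposited TPM as log2(TPM + 1) (purple triangles). Gstm1 and Gstp1 lie below 0 in all 3, Gstm2 above 0 in all 3 with a call in the first, and Gstm4, Gstm7 and Gstp2 change sign.

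Likeness to other genes was measured as the root mean square difference of log2 CPM over the 8 libraries, after each gene's mean had been subtracted, among 6998 tested genes of at least 10 CPM. Nearest to Gstm1 were Setd7 (0.141), which encodes a lysine methyltransferase, S100a11 (0.145), a calcium-binding protein, and Ntn4 (0.192), a netrin. Nearest to Gstp1 were Mlxipl (0.0939), the gene of the carbohydrate sensor ChREBP, Cblc (0.123), a ubiquitin ligase, and Amdhd2 (0.124), an enzyme of amino sugar breakdown. Gstm1 and Gstp1, on different chromosomes, differed from each other by 0.213, less than either did from any of the other 7 members. The next nearest member was Gstm6 for both, at 0.330 from Gstm1 and 0.306 from Gstp1, while Gstm2 lay at 0.776 from Gstm1. Such likeness includes the group difference itself.

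Among other glutathione transferases, 1 was called higher and 4 lower of 16 tested, with a median log2 fold change of -0.20, against -0.0043 over all tested genes. The 3 with the smallest p were alpha-class genes. Gsta2 was at 8.39 ± 1.09 CPM with resmetirom and 23.3 ± 4.44 CPM in the controls, a log2 fold change of -1.47 (SE 0.16, edgeR adjusted p = 0.000298). Gsta1 was at -3.44 (SE 0.44) and its near copy Gsta13 at -4.24 (SE 0.51), both called lower, at 1.01 ± 0.743 CPM and 0.638 ± 0.432 CPM with resmetirom, against 11.2 ± 3.71 CPM and 12.0 ± 4.99 CPM in the controls, and reads may be split between them. The membrane-bound Mgst1 was the fourth gene called lower, at -0.41 (SE 0.10, edgeR adjusted p = 0.0454). Gstt1 of the theta class, named after its values were seen, was the gene called higher, at 0.46 (SE 0.09, edgeR adjusted p = 0.0151). Gsta3, an abundant alpha-class gene also named after its values were seen, had 954 ± 16.9 CPM with resmetirom and 727 ± 126 CPM in the controls, a log2 fold change of 0.39 (edgeR adjusted p = 0.0799) that was not called. The number called higher was 0 with library sizes only and without resmetirom replicate 4, control replicate 3 or control replicate 4. It was 2 without resmetirom replicate 3, control replicate 1 or control replicate 2, and 3 with DESeq2. The number lower was 7 with library sizes only, a scaling that called 1961 of all 12207 tested genes lower.

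For the supply and turnover of glutathione, 3 of 18 tested genes were called higher and 1 lower, with a median of 0.08. Scaled by library size alone, 2 were called higher and 6 lower, at a median of -0.22. All 12207 tested genes had 1961 called lower at that scaling, with a median of -0.31. Cth, which makes the cysteine needed for glutathione, was at 792 ± 112 CPM with resmetirom and 393 ± 113 CPM in the controls, a log2 fold change of 1.01 (SE 0.19, edgeR adjusted p = 0.0114), and Ggct, a cyclotransferase of glutathione breakdown, was at 1.0 (SE 0.18, edgeR adjusted p = 0.00721), which was 0.12 (adjusted p = 0.640) in log2(TPM + 1). Chac1, which cleaves glutathione, was at -2.04 (SE 0.44, edgeR adjusted p = 0.0200) with overlapping groups, and it was not called without resmetirom replicate 1, 2 or 4 or control replicate 1, 3 or 4 (adjusted p = 0.0520 to 0.0720), nor with limma-voom (adjusted p = 0.118).

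Of 15 tested genes for the export and further processing of glutathione conjugates, 4 were called lower and 0 higher, with a median of -0.15. At an unadjusted p under 0.05 the same fit also gave 4 lower and 0 higher, as did DESeq2 and limma-voom after adjustment. The number lower was 7 with library sizes only, which called 1961 of all 12207 tested genes lower. It was 3 to 4 with any 1 library left out, and 3 with the replicate number as a block. Abcc3, an exporter of organic anions into blood, was at 31.0 ± 9.84 CPM with resmetirom and 215 ± 15.7 CPM in the controls, a log2 fold change of -2.80 (SE 0.22, edgeR adjusted p = 0.000128). The acetyltransferase gene Nat8 was at -2.79 (SE 0.45, edgeR adjusted p = 0.00472) and its relative Nat8f5 at -4.20 (SE 0.67, edgeR adjusted p = 0.00347), at 1.01 ± 0.617 CPM and 0.200 ± 0.231 CPM with resmetirom, against 6.93 ± 3.02 CPM and 3.67 ± 1.58 CPM in the controls. The exporter gene Abcc4, named after its values were seen, was at -0.99 (SE 0.22, edgeR adjusted p = 0.0261).

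Of 18 NRF2 target genes outside the glutathione transferases, 1 was called higher and 1 lower, with a median of 0.02. With library sizes only 0 were called higher and 3 lower, at a median of -0.30. Over all 12207 tested genes that scaling called 1961 lower, at a median of -0.31, so these 3 are near the background. With TMM factors 2 were called higher without resmetirom replicate 4. Me1, the malic enzyme, was at 0.68 (SE 0.11, edgeR adjusted p = 0.00405), and its call was lost when library sizes were the scaling (adjusted p = 0.0657). Ephx1, the microsomal epoxide hydrolase, was at 249 ± 38.8 CPM with resmetirom and 340 ± 25.5 CPM in the controls, a log2 fold change of -0.45 (SE 0.11, edgeR adjusted p = 0.0471), a call lost without any 1 of resmetirom replicates 1, 2 and 4 and of control replicates 1 to 4 (adjusted p = 0.0515 to 0.127). Among 18 targets of the xenobiotic receptors CAR and PXR, 3 were called higher and 4 lower, with a median of -0.13, and 1 was called higher without control replicate 3 or control replicate 4. With library sizes only 1 was called higher and 7 lower. Cyp3a11, the main drug-metabolizing member of its family, was at 2862 ± 507 CPM with resmetirom and 9006 ± 2120 CPM in the controls, a log2 fold change of -1.65 (SE 0.18, edgeR adjusted p = 0.000401). The carboxylesterase gene Ces2a was at -1.16 (SE 0.10, edgeR adjusted p = 6.19e-05), and Ugt1a1, which conjugates bilirubin, at 0.74 (SE 0.11, edgeR adjusted p = 0.00173) and at 0.44 (adjusted p = 0.0528) with library sizes only.

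Of 18 regulators of these genes, among them Nfe2l2 (NRF2), Keap1, Nr1i2 (PXR), Nr1i3 (CAR) and Thrb, edgeR called 0 higher and 0 lower, with a median of 0.01. The unadjusted p was under 0.05 for 5 of them, limma-voom called 0, and DESeq2 called 2 higher and 0 lower. With library sizes only, 6 were called lower at a median of -0.29, against 1961 of all 12207 tested genes at a median of -0.31. With TMM factors 1 was called higher without resmetirom replicate 1, resmetirom replicate 3 or control replicate 3. Nfe2l2 itself was at -0.29 (adjusted p = 0.248 with edgeR).

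Sex-biased liver genes were listed because Gstp1 is one of them. Of 20 tested genes that are higher in male mouse liver 9 were called lower and 1 higher, with a median of -1.85, and the number higher was 0 to 2 over the libraries left out. By edgeR, Cyp2d9 was at -2.86 (SE 0.14, adjusted p = 3.06e-07), Mup20 at -3.96 (SE 0.25, adjusted p = 2.68e-05) and Mup21 at -6.43 (SE 0.41, adjusted p = 4.70e-05). The listed Mup genes did not all move in 1 direction. Mup1, named after its values were seen, was the gene called higher, at 3.60 (SE 0.56, edgeR adjusted p = 0.0160). Mup7, also named after its values were seen, was at 3.09 (SE 0.73, edgeR adjusted p = 0.0768) and not called. DESeq2 called 3 of the 20 higher and 12 lower. Of 20 listed genes that are higher in females 15 were tested, and 8 of these were called higher and 0 lower. The number lower was also 0 at an unadjusted p under 0.05 and with DESeq2. Genes near 0 counts in the controls passed the count filter only through the resmetirom libraries, so they could only come out higher. Without the filter 8 of 20 were called higher and 0 lower, at a median of 4.01. The median of the 15 was 4.72. The 5 genes of 3 or fewer control counts were also set to ratios of summed counts or, at 0 counts, to a floor of 3 counts over the group. They lay above the median before and after, so this could not move it. Cyp2a4 was at 3.32 (SE 0.24), and Sult2a1 and Sult2a2 had 55349 and 25507 counts over the resmetirom libraries, against 3 and 6 over the control libraries. The part of these programmes in the values of Gstp1 was not tested.

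Markers of other cell types were also summed. Adipocyte markers, of which Adipoq, Lep and Retn were at 0 counts, came to 136 to 209 CPM in the resmetirom and 283 to 429 CPM in the control libraries, with 2 of 4 tested called lower, Lpl and Fabp4. The hepatocyte sums did not overlap between groups either, with 3 of 10 called higher. Sums for cholangiocytes, stellate cells, macrophages, endothelial cells and lymphocytes overlapped between groups, and the collagen gene Col3a1 was their 1 marker called, and lower. Their part in the results on the glutathione transferases was not tested.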

How the data were processed

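Poly(A)-selected liver RNA was sequenced in 8 libraries, grouped by their titles. The deposited counts are whole reads per gene, raw per the file headers and values, and the TPM were computed by the authors. The authors' log2 fold change is the ratio of mean TPM, per the file headers and values, and the deposited p-values and FDR come from a test that is not named. Without giving roles, the submitters' processing notes list RSEM, edgeR and DESeq2, the aligners HISAT2 (2.1.0) and Bowtie2 (2.2.8), StringTie 1.3.1, fastp 0.18.0 and the build mm10.

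Genes were filtered with filterByExpr, scaled by TMM and tested with edgeR 4.0.16 (quasi-likelihood, robust, group only) in R 4.3.3, with Benjamini-Hochberg adjustment over all 12207 tested genes at 0.05. On simulated data this test called 24% of the genes given a 1.5-fold difference and 76% of those given a 2-fold one. The share was 98% at both 4-fold and 8-fold, and 3 of all 151 calls were false. A member that was not called can therefore still differ at folds near 1.5. Of 22013 genes 5994 had no counts. Class sums and shares carry no test. Libraries of a group differed by more than sampling noise (chi-square per degree of freedom at least 13.9 for every pair). The members and gene lists were chosen with earlier results of these data known. Named genes are all 9 members, up to 3 called genes of each list with the smallest p (otherwise the gene with the smallest p), and the 3 genes most like Gstm1 and Gstp1. A gene that this rule names is not reported here. Alternatives were DESeq2 1.42.0 and its size factors, limma 3.58.1 (voom, and log2 of TPM plus 1 or 0.1), upper-quartile factors, library sizes only, 2 other count filters, no robust estimation, removal of the 20 most abundant genes, a replicate block and each library left out. Of the gene identifiers 99.2% were found in GENCODE M21, which gave positions and coding sequences on GRCm38. Identity is over global alignments. All 9 members matched a RefSeq promoter, 14 in all. Protein sequences were not used here.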

Additional observations from a re-analysis of the deposited data

Results flagged for a closer look

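Of 38 sets of 4 libraries checked for a single distant value (each gene's CPM, class sums and shares, by group), 1 stood out, and chance gives about 1 in 20. Gstp2 CPM in the resmetirom libraries had a gap of 0.935 of the group's range, past Dixon's 95% critical value for 4 samples. Replicate 4 had 6.51 CPM and the other 3 had 2.46 to 2.73 CPM, against 1.5 to 4.23 CPM in the control libraries. These values rest on 96 counts in replicate 4 and 37 to 48 in the others.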

How the results depend on the processing

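Gstm1 and Gstp1 kept their direction and their call under all 20 alternatives. Gstm2 kept its call under 17 and lost it when scaled by library size alone (0.36) and in log2 of TPM plus 1 or plus 0.1 (0.16 each). The 1 member called higher became 0 under those 3, and the 2 called lower became 4 on both TPM scales. Genes called higher and lower over the whole table were 532 and 411 with DESeq2, 151 and 1961 with library sizes only, and 123 and 4648 or 122 and 4608 from TPM, plus 1 or plus 0.1. They were 182 to 313 and 149 to 238 with any 1 library left out, where members called stayed at 1 higher and 2 lower. The mu-class log2 ratio was -1.02 with library sizes only and -1.19 from TPM, and the pi-class ratio -0.98 and -1.17. Signs turned for Gstm4 (-0.24 with library sizes only, -0.48 and -0.49 on the TPM scales, -0.028 without control replicate 3), Gstm7 (-0.080, and -0.24 and -0.25 on the TPM scales) and Gstp2 (-0.14 and -0.15 on the TPM scales, -0.10 without resmetirom replicate 4, and up to 0.60 with another library left out). The cause was not tested. With the replicate number as a block, 240 genes were called higher and 166 lower, and of the members 1 higher and 3 lower, with Gstm3 added (adjusted p = 0.0456). Nothing in the labels says that equal numbers pair libraries. Deviations of libraries with equal numbers correlated at -0.33 to 0.18, and 1 of 4 correlated best with its own number. Deviations from a group's own mean depend on each other, so these correlations cannot decide whether the libraries were paired. The fewest counts of a member in a library were 31, for Gstp2.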
